A study of Mus musculus with 36 samples.

Results

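Genes of sterol and fatty acid synthesis, many of them known targets of the SREBP transcription factors, were followed through dendritic cells activated with LPS, PGPC or both. The set is a list of 34 genes with named functions in these pathways, out of 53299 genes in the deposited table. All 34 were found and all 34 had enough counts to be tested, among 12463 tested genes. The sterol arm holds 22 genes: 7 of the mevalonate and isoprenoid steps, 11 of the steps from squalene to cholesterol, and 4 that regulate the pathway or carry sterol. The fatty acid arm holds 12 genes: the regulator Srebf1, 3 that supply precursors, 2 of chain synthesis and 6 of desaturation and elongation.

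The study measured messenger RNA in cDC1 and cDC2, the main kinds of conventional dendritic cell, grown from bone marrow of mice under the cytokine FLT3L. The labels give no strain, genotype, age or time of treatment. The groups used here are LPS with PGPC, LPS alone, PGPC alone and no treatment, in each kind of cell, with 3 libraries per group, which the study calls biological replicates, and 2 for cDC2 with PGPC. LPS is the bacterial lipopolysaccharide that TLR4 detects, and PGPC is a phospholipid with an oxidized, shortened side chain. The cDC2 libraries carry the numbers 4 to 6 and the cDC1 libraries 1 to 3, and nothing links a number to an animal. Libraries with alum were not used, nor was replicate 6 of PGPC-treated cDC2, whose total was only 3799 counts.

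Cells make cholesterol from acetyl-CoA by way of mevalonate, squalene and lanosterol, and they make fatty acids from the same acetyl-CoA through malonyl-CoA. SREBP2, the product of Srebf2, mainly drives the sterol genes, and SREBP1, the product of Srebf1, mainly drives the fatty acid genes. Both wait in the endoplasmic reticulum bound to SCAP, and INSIG proteins hold them there while sterol is plentiful, so a rise of their target messages can occur without a rise of Srebf1 or Srebf2 messages. In macrophages and dendritic cells, TLR signals and interferon are known to alter both branches.

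SREBP factors usually act on promoters together with the factor NF-Y, which binds the letters CCAAT. Promoter windows of 250 bases before the start of transcription, from RefSeq on GRCm38.p6, were found for 27 of the 34 genes, and 5 of these had more than 1 window. The windows of 4 genes are shown because these genes come from both arms and the windows hold no annotated exon: Hmgcs1 and Mvd of the sterol arm, and Acly and Fasn of the fatty acid arm. Capitals mark CCAAT on either strand (ATTGG on the printed one) and, in Hmgcs1, 1 match to TCACNCCAC, a sterol regulatory element. The Hmgcs1 window is chr13:119690101-119690350 on the plus strand. The Mvd window is chr8:122443423-122443672, the Acly window chr11:100528001-100528250 and the Fasn window chr11:120824548-120824797, all on the minus strand.
Hmgcs1: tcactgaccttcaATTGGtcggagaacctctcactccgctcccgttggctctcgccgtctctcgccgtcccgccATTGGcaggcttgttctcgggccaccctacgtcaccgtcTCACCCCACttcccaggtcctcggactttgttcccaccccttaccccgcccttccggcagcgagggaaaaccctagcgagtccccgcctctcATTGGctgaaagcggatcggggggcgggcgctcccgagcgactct
Mvd: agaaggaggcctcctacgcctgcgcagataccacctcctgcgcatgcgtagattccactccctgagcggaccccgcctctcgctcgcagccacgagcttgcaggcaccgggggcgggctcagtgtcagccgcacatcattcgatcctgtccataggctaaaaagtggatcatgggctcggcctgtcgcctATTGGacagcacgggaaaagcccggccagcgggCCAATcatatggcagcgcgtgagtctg
Acly: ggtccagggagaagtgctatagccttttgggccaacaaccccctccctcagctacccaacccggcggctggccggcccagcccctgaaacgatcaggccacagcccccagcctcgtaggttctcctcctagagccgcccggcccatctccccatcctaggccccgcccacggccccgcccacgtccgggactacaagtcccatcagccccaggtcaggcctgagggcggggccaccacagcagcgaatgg
Fasn: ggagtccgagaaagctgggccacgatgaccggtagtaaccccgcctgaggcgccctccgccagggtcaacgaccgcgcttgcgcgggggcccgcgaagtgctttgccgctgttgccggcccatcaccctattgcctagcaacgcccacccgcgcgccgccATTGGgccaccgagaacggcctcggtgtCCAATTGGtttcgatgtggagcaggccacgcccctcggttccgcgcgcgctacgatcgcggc

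Hmgcs1 had 3 CCAAT matches, Mvd 2, Fasn 3 and Acly none. A pair of the Fasn matches overlaps, as CCAATTGG, on opposite strands. Over all genes with a window, CCAAT on either strand occurred in 16 of 18 sterol genes (88.9%) and 5 of 9 fatty acid genes (55.6%), against 40.7% of the 9428 tested genes with a window and 33.8% of all 32851 windows. The element TCACNCCAC, searched on both strands, was found for 1 of 18 sterol genes, Hmgcs1, and for 0 of 9 fatty acid genes, against 1.17% of tested genes and 1.05% of all windows. The letters GGGCGG, bound by Sp1, another partner of SREBP, occurred on either strand in 17 of 18 sterol genes (94.4%) and 5 of 9 fatty acid genes (55.6%), against 63.8% of tested genes. These matches describe letters only.

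The 23 libraries held 243870 to 16601064 counts in 9687 to 15608 genes, and 354 to 44757 counts in the 34 genes. Levels are given as CPM, counts scaled to a common library size with TMM factors. The ribosomal RNA locus took 7.7 to 71.9% of counts, with 52.0 to 60.9% in cDC2 with PGPC and 40.7 to 71.9% in untreated cDC1. The labels were checked against marker genes. Clec9a and Batf3, defining genes of cDC1, averaged 0.619 and 1.6 CPM in untreated cDC2 and 37.0 and 34.4 CPM in untreated cDC1, and Sirpa, a cDC2 surface marker, averaged 1100 CPM in untreated cDC2 against 358 CPM in untreated cDC1. Xcr1 was at 0.177 CPM in untreated cDC1, and Cd209a was at 0.175 CPM in untreated cDC2, against 2.08 CPM in untreated cDC1, so these defining markers were low in the cells they mark. Clec10a, also a cDC2 marker, averaged 2.29 CPM in untreated cDC2 and 5.93 CPM in untreated cDC1. Of 8 cDC2 markers 7 were tested, of which 3 were called higher and 1 lower in untreated cDC2 than in untreated cDC1. Irf4, a regulator tied to cDC2, was lower in untreated cDC2 (2.61 CPM) than in untreated cDC1 (24.9 CPM). Monocyte or macrophage markers summed to 2380 to 3330 CPM in untreated cDC2 and 847 to 1150 CPM in untreated cDC1. Several libraries lay further from their group. Replicate 4 of cDC2 with LPS correlated across tested genes with replicates 5 and 6 at a Spearman rho of 0.837 and 0.865, against 0.917 between those, and its macrophage markers summed to 5200 CPM, against 1830 and 1760 CPM. Replicate 1 of cDC1 with LPS and PGPC correlated with its group at 0.892 and 0.893, against 0.955 between the other two, and untreated cDC2 replicate 6 at 0.887 and 0.882, against 0.961. Counts of called genes that rest on single libraries are given with and without them.

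LPS raised sterol genes in cDC1. A gene is called when its Benjamini-Hochberg adjusted p over all tested genes is under 0.05 in edgeR's quasi-likelihood test. LPS-treated and untreated cDC1 differed in 14 of the 34 genes (41.2%), against 17.9% of all tested genes. In the sterol arm 8 rose and 1 fell, where 8.58% of all genes rose and 9.36% fell, and the median log2 fold change of the 22 genes was 1.00, against -0.12 over all genes. Of the 7 mevalonate and isoprenoid genes 4 rose. In this bulk RNA, fewer cells of a type and less RNA per cell cannot be told apart.

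Hmgcs1 encodes the synthase that makes HMG-CoA, the precursor of mevalonate. It had 689, 722 and 452 CPM in the 3 LPS libraries, against 102, 92.1 and 98.2 CPM in the untreated ones. The groups did not overlap, and the gene rose by 2.67 ± 0.48 on the log2 scale (SE, adjusted p = 0.000304, edgeR). Idi1, the isomerase that makes the building block for longer isoprenoids, had 251, 275 and 188 CPM with LPS, against 8.55, 20.6 and 37.2 CPM untreated, and had the highest fold change of the 34 genes, 3.38 ± 0.54 on the log2 scale (adjusted p = 9.4e-05). Every LPS library lay above every untreated one. Acat2, which makes acetoacetyl-CoA at the entry of the pathway, averaged 54.7 ± 27.2 CPM with LPS and 15.6 ± 4.69 CPM untreated (SD, n = 3 each).

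The later steps moved less evenly. Cyp51, the lanosterol demethylase, had 224, 229 and 186 CPM with LPS, against 66.7, 63.8 and 76.4 CPM untreated, and rose by 1.63 ± 0.34 (log2, adjusted p = 0.00145). Its groups lay well apart. Lss, which closes the sterol ring to form lanosterol, had 65.4, 60.2 and 50.9 CPM with LPS, against 12, 13.7 and 23 CPM untreated, and rose by 1.83 ± 0.50 on the log2 scale (adjusted p = 0.0123). Sqle, the squalene epoxidase, rose by 1.51 ± 0.50 (167 ± 40.4 against 59.3 ± 14.0 CPM, adjusted p = 0.0375). Stard4, which carries sterol between membranes, had 21.4, 57.9 and 33.3 CPM with LPS, against 8.55, 12.7 and 17.6 CPM untreated. The groups did not overlap, and its log2 fold change was 1.49 ± 0.51 (adjusted p = 0.0426). Ebp, an isomerase of late sterol intermediates, went the other way, with 6.79, 7.68 and 6.48 CPM with LPS, against 13.7, 48.7 and 28.3 CPM untreated. Its log2 fold change was -2.14 ± 0.61 (adjusted p = 0.0150), and all LPS libraries were below all untreated ones. Fdps and Fdft1, which make farnesyl pyrophosphate and squalene, stood at -0.40 ± 0.37 and 0.08 ± 0.59 with no call.

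The fatty acid arm of cDC1 split. With LPS 2 genes rose and 3 fell, and the median of the 12 was -0.77. Acaca, the acetyl-CoA carboxylase that commits carbon to fatty acids, had 34, 51.4 and 47.4 CPM with LPS, against 11.1, 2.78 and 11.4 CPM untreated. Its groups did not overlap, and the log2 fold change was 2.44 ± 0.69 (adjusted p = 0.0147). Acly, which makes cytosolic acetyl-CoA from citrate, averaged 425 ± 96.1 CPM with LPS and 177 ± 34.8 CPM untreated (log2 fold change 1.27 ± 0.45, adjusted p = 0.0498). Fasn, which builds the chain, stood at -0.37 ± 0.39 (adjusted p = 0.552).

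Of the 4 desaturase genes, Fads1, Fads2 and Scd1 were called lower in LPS-treated cDC1, and Scd2 was not called. Fads2, the delta-6 desaturase of polyunsaturated fatty acids, had 6.87, 4.72 and 11.8 CPM with LPS, against 39.3, 57.3 and 58.6 CPM untreated. The highest LPS library was far below the lowest untreated one (-2.72 ± 0.63 on the log2 scale, adjusted p = 0.0035). Fads1, the delta-5 desaturase, had 28.2, 29.5 and 33.0 CPM with LPS, against 112, 91.6 and 115 CPM untreated, and fell by 1.81 ± 0.36 on the log2 scale (adjusted p = 0.000837). Its groups did not overlap either. Scd1, a desaturase that makes monounsaturated fatty acids, had 1 count with LPS and 103 untreated, 107-fold lower (counting interval 18.8 to 4270, for counting error only). Of the untreated counts, 100 were in replicate 3, so a single library carried that level. Scd2, its close relative, had 35.8 ± 6.58 CPM with LPS and 28.8 ± 19.8 CPM untreated (adjusted p = 0.73). Where these related genes share bases, reads may be split between them by the counting.

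Leaving out single libraries changed the number of called genes in LPS-treated cDC1. It was 8 without LPS replicate 1, 8 without LPS replicate 2 and 6 without untreated replicate 2, while Hmgcs1, Idi1, Cyp51, Fads1 and Fads2 were called each time. Over all genes the calls went from 2235 of 12463 to 1436 of 12275, 1441 of 12557 and 1532 of 12267 in turn. Other marker sums differed between the same libraries. The proliferation list summed to 193 to 202 CPM with LPS and 363 to 581 CPM untreated. The cDC1 marker list summed to 437 to 631 CPM with LPS and 1100 to 1820 CPM untreated, with 2 of 10 called lower and 1 higher. The cDC2 marker list summed to 959 to 1170 CPM with LPS and 333 to 596 CPM untreated. Of its 7 tested genes 3 were called higher and 2 lower. Neutrophil or granulocyte precursor markers summed to 0 to 6.96 CPM with LPS, with Elane, Mpo, Ctsg, Ngp and Ltf at 0, and to 47.0 to 199 CPM untreated. Of 12 monocyte or macrophage markers 2 rose and 9 fell, and they summed to 495 to 1300 CPM with LPS and 847 to 1150 CPM untreated. Ribosomal RNA took 13.9 to 25.9% of counts with LPS and 40.7 to 71.9% untreated. The part of these lists in the result was not tested. When the ribosomal RNA locus and mitochondrial genes were dropped, a variant added once the data had been seen, 15 genes were called in place of 14.

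**Figure D1:**
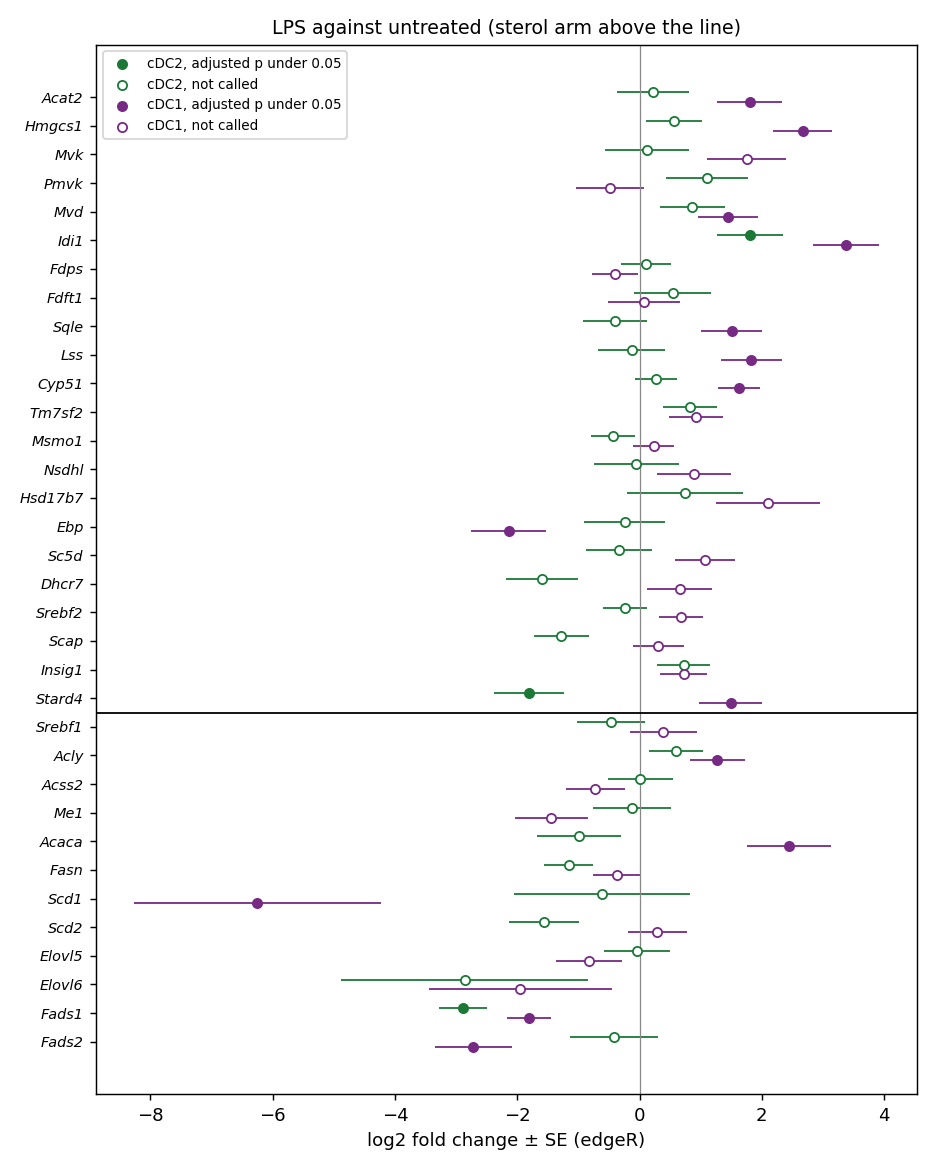
Log2 fold change with its standard error (edgeR) of each of the 34 genes for LPS against untreated cells, in cDC2 (green) and cDC1 (purple); filled points passed an adjusted p of 0.05. Most purple points of the sterol arm lie right of 0, the green ones lie on both sides of it, and Fads1 is filled on the left in both kinds of cell. Scd1 in cDC1 and Elovl6 in cDC2 rest on 1 count with LPS, so their fitted fold changes give no size.

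In cDC2, LPS left most of these genes without a call. Of the 34 genes 3 were called (8.82%), against 8.52% of all tested genes, so the share was near the background. Idi1 rose, where 5.82% of all genes did, Stard4 and Fads1 fell, where 2.7% did, and the median was 0.11 in the sterol arm and -0.54 in the fatty acid arm, against 0.03 over all genes. Fads1 had 12.8, 9.16 and 9.78 CPM with LPS, against 83.6, 84.2 and 67.4 CPM untreated. The groups lay far apart (-2.89 ± 0.39 on the log2 scale, adjusted p = 2.7e-05), and the call held under each of 12 alternatives.

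Idi1 had 110, 42 and 60.7 CPM in LPS-treated cDC2, against 19.8, 17.8 and 26.2 CPM untreated, without overlap (1.80 ± 0.54, adjusted p = 0.0367). Stard4 had 8.70, 2.15 and 6.85 CPM with LPS, against 21.2, 20.9 and 18.7 CPM untreated, so it was lower in cDC2 and higher in cDC1 with the same stimulus (-1.81 ± 0.57, adjusted p = 0.0458). Hmgcs1 had 180 CPM in replicate 4 and 41.5 and 56.7 CPM in replicates 5 and 6 with LPS, against 61.9, 72.6 and 52.4 CPM untreated. Its LPS libraries lay on both sides of the untreated ones (0.56 ± 0.46, adjusted p = 0.585). Fasn (-1.16 ± 0.40, adjusted p = 0.0816) and Scd2 (-1.56 ± 0.57, adjusted p = 0.0978) missed the threshold. The count was 1, Fads1 alone, without untreated replicate 4 and without untreated replicate 5, and 2, Scap and Fads1, without untreated replicate 6. Without LPS replicate 4 it was 3: Scap, Stard4 and Fads1. Proliferation genes summed to 79.4 to 86.7 CPM with LPS and 174 to 198 CPM untreated. Plasmacytoid dendritic cell markers summed to 247 to 540 CPM with LPS and 22.5 to 71.8 CPM untreated, with Siglech, Ly6d and Klk1 at 0 with LPS. The part of these lists was not tested.

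The difference between the LPS effects in cDC2 and cDC1 was tested as an interaction. It was called for 1 gene of 34 (2.94%), against 1.33% of all tested genes. For Stard4 the LPS effect was lower in cDC2 than in cDC1 by 3.30 ± 0.76 on the log2 scale (adjusted p = 0.026, edgeR). The interaction stood at -3.43 ± 0.96 for Acaca (adjusted p = 0.0776), -2.11 ± 0.65 for Hmgcs1 (adjusted p = 0.113) and -1.90 ± 0.72 for Sqle (adjusted p = 0.221). Without replicate 4 of cDC2 with LPS the count was 7, while calls over all genes went from 166 of 12463 to 442 of 12551. Then the LPS effect was lower in cDC2 for Hmgcs1 (-3.05 ± 0.58, adjusted p = 0.00464), Sqle, Cyp51, Scap, Stard4 and Acaca, and higher for Fads2. The count was 0 without cDC1 LPS replicate 2, cDC1 untreated replicate 1 or 2, cDC2 LPS replicate 5 or 6, or cDC2 untreated replicate 4 or 5, by the same edgeR test. With all libraries, 14 members had an unadjusted p under 0.05, and DESeq2 called 3, against 432 of 10235 genes over all.

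PGPC alone changed little that passed the test. In cDC1 it changed 1 of the 34 genes (2.94%), against 2.08% of all tested genes. Fasn had 46.6, 56.0 and 46.3 CPM with PGPC, against 468, 206 and 262 CPM untreated. The PGPC libraries lay close together and far below all untreated ones (-2.65 ± 0.42, adjusted p = 0.00179, edgeR). In cDC1 given LPS with PGPC, Fasn had 81.0, 166 and 149 CPM, so its lowest levels in cDC1 were with PGPC alone.

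Other PGPC values in cDC1 were near the threshold without passing it. Acss2, which makes acetyl-CoA from acetate, had 32.5, 42.3 and 29.3 CPM with PGPC, against 19.7, 10.8 and 7.27 CPM untreated (1.52 ± 0.48, adjusted p = 0.0921). Fdps stood at 1.17 ± 0.38 (adjusted p = 0.102), and the malic enzyme gene Me1, a source of NADPH, at -2.03 ± 0.60 (adjusted p = 0.0725). These 3 genes, chosen after their values were seen, are those that DESeq2 called besides Fasn. Over all genes DESeq2 called 645 of 13519 here, where edgeR called 259 of 12463. By edgeR, Me1 was also called without PGPC replicate 1, which made the count 2, with 313 of 12108 genes called over all. In the sterol arm edgeR called 0 of 22, with 5 at an unadjusted p under 0.05 and 1, Fdps, by DESeq2. Markers of other cell types differed between the same libraries. Neutrophil or granulocyte precursor markers summed to 259 to 1160 CPM with PGPC and 47.0 to 199 CPM untreated, with Elane at 0 in both, and mast cell or basophil markers to 52.1 to 77.9 CPM with PGPC and 1.27 to 2.88 CPM untreated. Ribosomal RNA took 14.1 to 35.4% of counts with PGPC and 40.7 to 71.9% untreated. The part of these values in the fall of Fasn was not tested.

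In cDC2, with n = 2 PGPC libraries, edgeR called 0 of 34 genes, against 0.016% of all tested genes. Of the 34, 1 had an unadjusted p under 0.05 (Me1, named after its value was seen), and DESeq2 called 0. Fasn had 102 and 129 CPM with PGPC, against 141, 214 and 153 CPM untreated. The values do not overlap, but the difference did not pass the test (-0.56 ± 0.45, adjusted p = 0.924). Hmgcs1 had 79.4 and 112 CPM with PGPC, against 61.9, 72.6 and 52.4 CPM untreated (0.59 ± 0.52, adjusted p = 0.936).

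**Figure D2:**
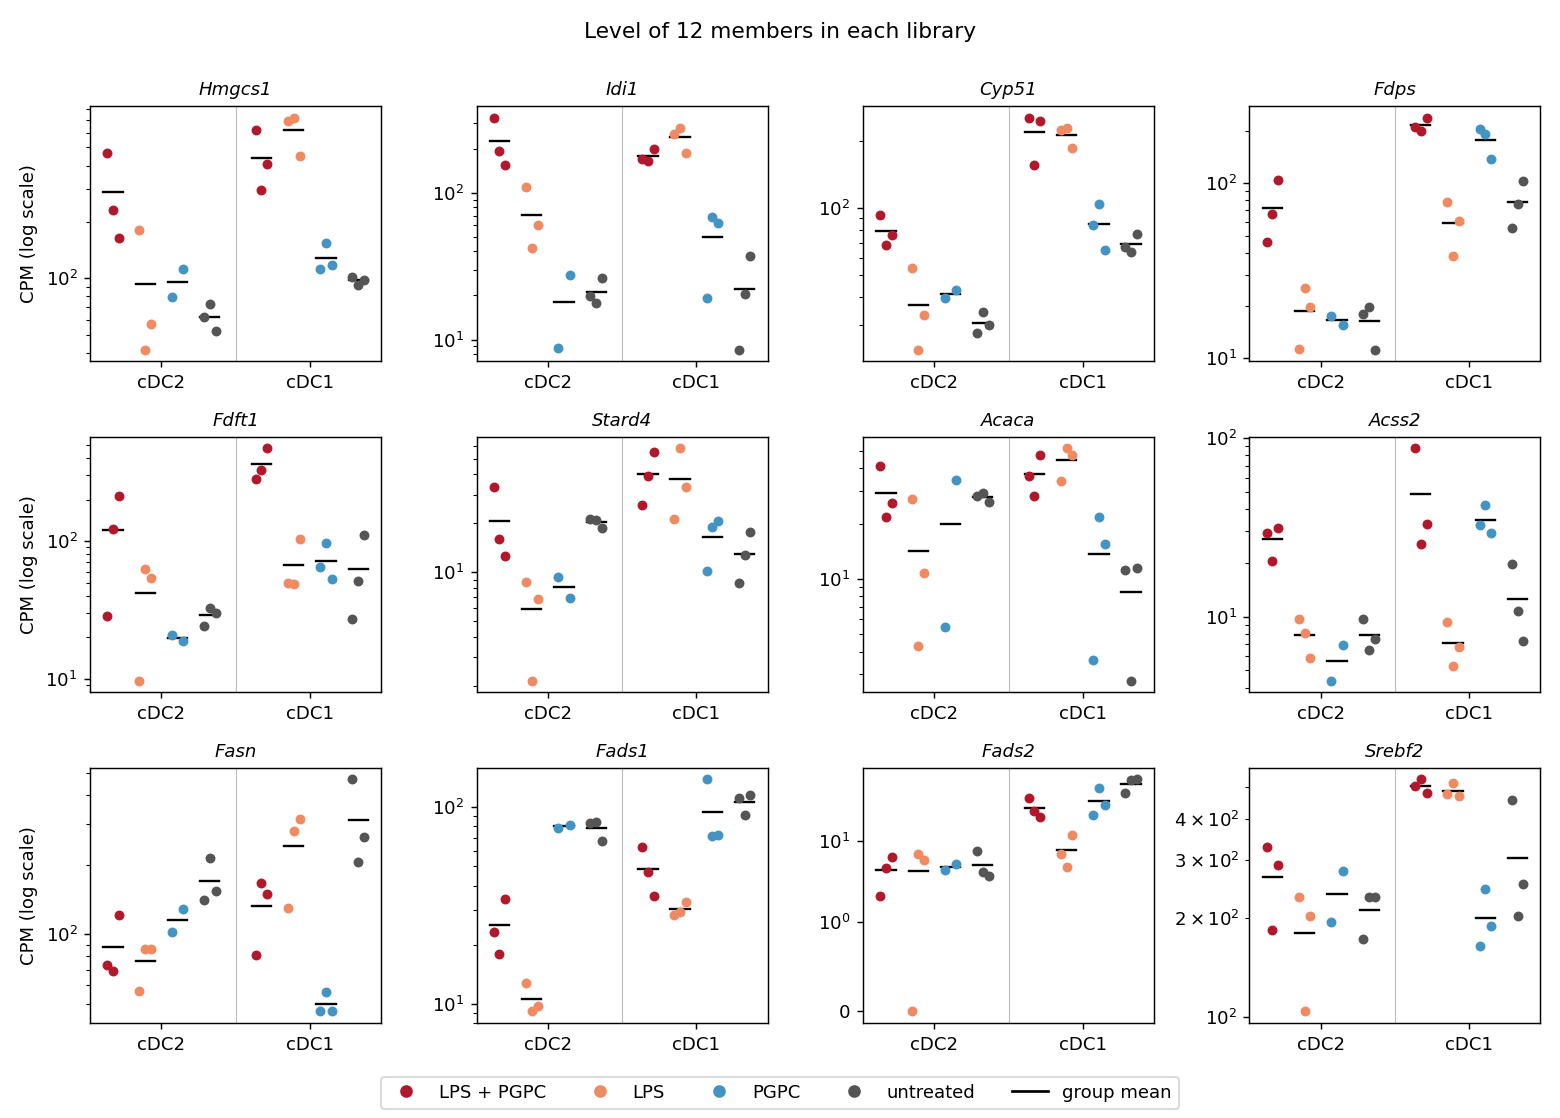
CPM of 12 genes in every library on a log axis (for Fads2, linear below 1 so that 0 can be shown), with cDC2 on the left and cDC1 on the right of each panel; points are libraries, colours are treatments and bars are group means. Fasn is lowest in cDC1 with PGPC, Fdft1 is highest in cDC1 with LPS and PGPC, and Fads1 is lowest with LPS in both kinds of cell.

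Adding PGPC to LPS was compared with LPS alone. In cDC1 it raised 3 of the 34 genes (8.82%), against 1.93% of all tested genes called and 1.39% called higher: Fdps, Fdft1 and Acss2. Hmgcs1 (-0.49 ± 0.45) and Idi1 (-0.41 ± 0.49), which LPS had raised most, were not called. The medians were 0.30 in the sterol arm, 0.58 in the fatty acid arm and 0.07 over all genes. The LPS libraries here are the same as in the comparison with untreated cells.

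Acss2 had 87.4, 25.6 and 32.8 CPM with LPS and PGPC, against 9.28, 5.31 and 6.77 CPM with LPS. The groups did not overlap, and the call held under each of 12 alternatives (2.73 ± 0.49, adjusted p = 0.00412). Fdps, the farnesyl pyrophosphate synthase, had 210, 198 and 237 CPM with LPS and PGPC, against 78.4, 38.4 and 61.2 CPM with LPS. The libraries with PGPC lay close together and above all those with LPS alone (1.85 ± 0.38, adjusted p = 0.0110). Fdft1, the squalene synthase, had 282, 331 and 471 CPM with LPS and PGPC, against 49.7, 49.0 and 104 CPM with LPS, also without overlap (2.42 ± 0.62, adjusted p = 0.0374). Exons of Fdft1 share 18.3% of their bases with Ctsb on the opposite strand, and Smart-Seq2 reads carry no strand. Ctsb, a lysosomal protease gene, had 1130 ± 241 CPM with LPS and PGPC and 506 ± 120 CPM with LPS (1.16 ± 0.42, adjusted p = 0.152). Its reads and those of Fdft1 in the shared bases cannot be told apart. Untreated cDC1 had 4100 ± 599 CPM of Ctsb and 63.2 ± 43.0 CPM of Fdft1. Against untreated cDC1, LPS with PGPC lowered Ctsb (-1.86 ± 0.43, adjusted p = 0.0044, edgeR), while Fdft1 was called higher. The part of Ctsb reads in the Fdft1 values was not tested. Fdps shares 26.7% of its exon bases with the predicted gene Gm43738, which had 8.87 ± 2.88 CPM with LPS and PGPC and 0.803 ± 1.39 CPM with LPS. The count of called genes was 1, Acss2, without LPS replicate 2, and 2, Fdps and Acss2, without LPS and PGPC replicate 1.

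In cDC2 the addition of PGPC raised 2 of the 34 genes (5.88%), against 0.385% of all tested genes called and 0.281% called higher. Msmo1, a methyl sterol oxidase, had 85.5, 89.8 and 144 CPM with LPS and PGPC, against 29.7, 18.9 and 32.3 CPM with LPS (1.99 ± 0.36, adjusted p = 0.00689). Its groups lay far apart. Fdps had 46.2, 66.9 and 104 CPM with LPS and PGPC, against 11.3, 25.3 and 19.6 CPM with LPS, again without overlap (1.95 ± 0.40, adjusted p = 0.0219). No other gene was called. Of the 22 sterol genes, 21 had a positive log2 fold change, with a median of 1.57 against 0.01 over all genes. By the same test 16 of the 22 had an unadjusted p under 0.05. The shares of all tested genes above 0 and at that p are not given, so both counts only describe. Lss (2.04 ± 0.52, adjusted p = 0.0864) and Hmgcs1 (1.63 ± 0.46, adjusted p = 0.149) were among those that missed the threshold. In the fatty acid arm edgeR called 0 of 12, with 3 at an unadjusted p under 0.05 and 0 by DESeq2, and the median was 0.78.

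This result depends on single libraries. Without replicate 4 of cDC2 with LPS, 4 genes were called: Hmgcs1, Sqle, Lss and Msmo1. Over all genes the calls then went from 48 of 12463 to 83 of 12551. The count was 1 without LPS replicate 5 (Fdps), and 1 without LPS replicate 6 or without replicate 5 or 6 with LPS and PGPC (Msmo1). Macrophage markers summed to 1290 to 3800 CPM with LPS and PGPC and 1760 to 5200 CPM with LPS, so the groups overlapped, with all 12 markers detected in both. The difference between the cell types in the effect of PGPC added to LPS was called for 0 of 34 genes by edgeR, against 0.00802% of all tested genes, with 9 members at an unadjusted p under 0.05 and 0 called by DESeq2. It stood at 2.12 ± 0.64 for Hmgcs1 (adjusted p = 0.355). Without replicate 4 of cDC2 with LPS it was called for 1 gene, Hmgcs1 (3.05 ± 0.57, adjusted p = 0.0329), and for 46 of 12551 genes over all. Replicate 4 with LPS and PGPC stayed in that fit. Its macrophage markers (3800 CPM, against 1740 and 1290 CPM) and Hmgcs1 (467 CPM) were also the highest of its group. Across tested genes, the deviations of both replicates 4 from their group means correlated at 0.52. Leaving out only the LPS library thus widens the Hmgcs1 difference between the groups.

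**Figure D3:**
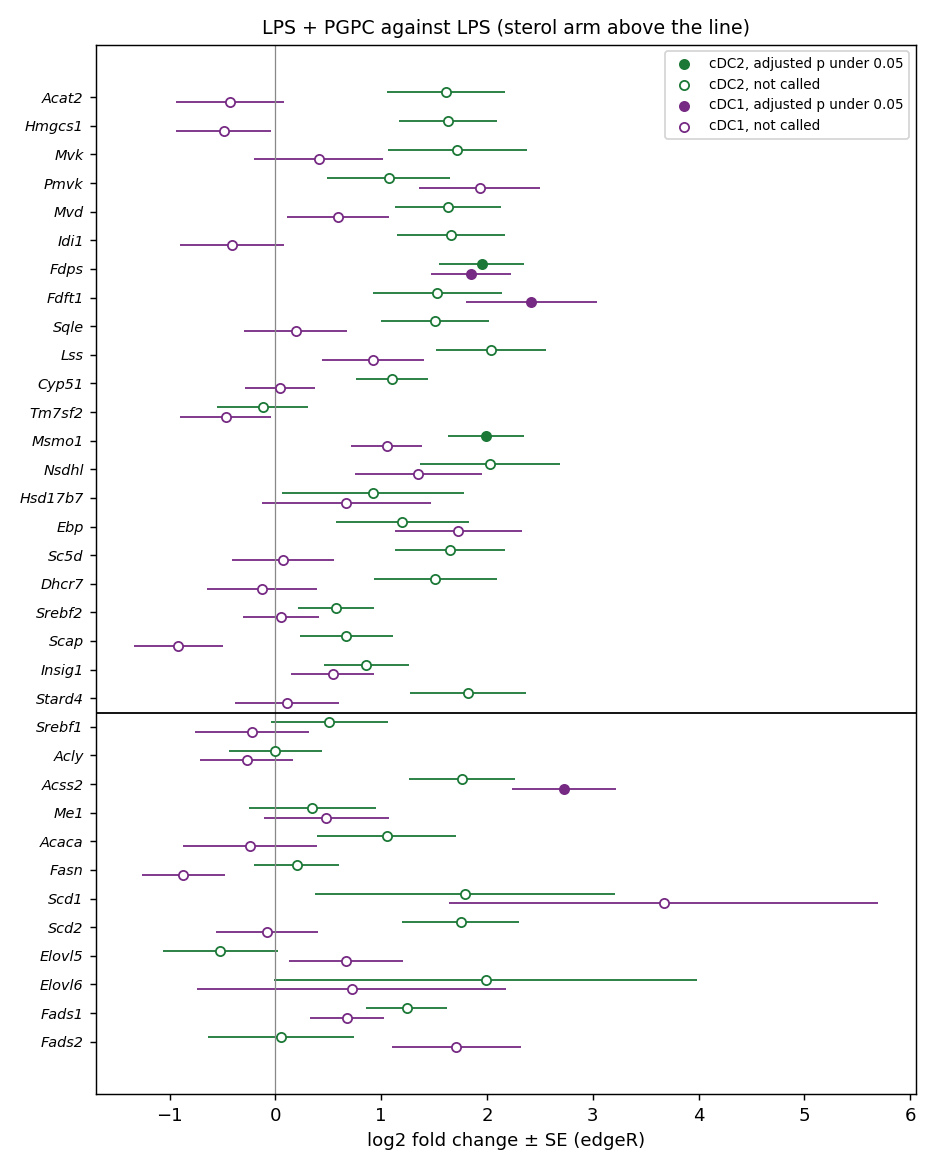
Log2 fold change with its standard error (edgeR) of each gene for LPS with PGPC against LPS alone, in cDC2 (green) and cDC1 (purple); filled points passed an adjusted p of 0.05. In cDC2 21 of 22 sterol genes lie right of 0, and Fdps is filled in both kinds of cell. Scd1 in cDC1 and Elovl6 in cDC2 rest on 1 count with LPS, so their fitted fold changes give no size.

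Set against untreated cells, LPS with PGPC gave the most calls in the sterol arm in both kinds of cell. In cDC2 13 of 34 genes were called (38.2%), against 7.62% of all tested genes, and in cDC1 18 of 34 (52.9%), against 11.9%. In the sterol arm 11 rose in cDC2 and 14 rose in cDC1, with medians of 1.62 and 1.52, against 0.07 and -0.08 over all genes. Of all tested genes 5.42% rose and 2.2% fell in cDC2, and 6.58% rose and 5.3% fell in cDC1. The fatty acid arm had 1 gene higher and 1 lower in cDC2 (median 0.05), and 2 higher and 2 lower in cDC1 (median -0.55). These comparisons share the untreated libraries with those of LPS alone, and LPS libraries were not used in them.

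The genes called higher in both kinds of cell numbered 10: Hmgcs1, Mvd, Idi1, Fdps, Fdft1, Lss, Cyp51, Msmo1, Insig1 and Acss2. They are 83.3% of the 12 called higher in cDC2 and 62.5% of the 16 in cDC1. The same overlap was not counted over all tested genes, so these shares only describe. In cDC2 Idi1 had 325, 192 and 154 CPM with LPS and PGPC, against 19.8, 17.8 and 26.2 CPM untreated, the highest fold change of the set there (3.46 ± 0.57, adjusted p = 0.000253). In cDC1 it had 171, 165 and 200 CPM with LPS and PGPC, and its log2 fold change was 2.96 ± 0.53 (adjusted p = 0.000438). Neither group overlapped with untreated cells. Mvd, which makes isopentenyl pyrophosphate, had 129, 67.2 and 49.7 CPM in cDC2 with LPS and PGPC, against 14.2, 16.5 and 11.2 CPM untreated (2.49 ± 0.54, adjusted p = 0.0035). In cDC1 it had 259, 93.5 and 107 CPM with LPS and PGPC, against 37.6, 39.9 and 35.3 CPM untreated (2.03 ± 0.50, adjusted p = 0.00779). Every treated library was above every untreated one in both.

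In both kinds of cell Hmgcs1 rose, and the log2 fold change was 2.19 ± 0.48 in cDC2 (467, 233 and 165 CPM with LPS and PGPC, adjusted p = 0.00374) and 2.18 ± 0.47 in cDC1 (621, 298 and 406 CPM, adjusted p = 0.00244). Insig1, which holds SREBP back and is itself a target, had 68.1, 56.2 and 39.9 CPM in cDC2 with LPS and PGPC, against 15.3, 23 and 15.0 CPM untreated (1.58 ± 0.42, adjusted p = 0.0191). In cDC1 it had 111, 77.1 and 111 CPM, against 25.7, 58.2 and 40.1 CPM untreated (1.26 ± 0.40, adjusted p = 0.038). The groups did not overlap in either kind of cell. Lss rose by 1.91 ± 0.53 in cDC2 and 2.75 ± 0.51 in cDC1, and Cyp51 by 1.37 ± 0.35 in cDC2 and 1.67 ± 0.34 in cDC1. Fdft1 rose in both, but its cDC2 groups overlapped, with 28.8, 122 and 213 CPM against 24.4, 32.8 and 29.9 CPM untreated (adjusted p = 0.0453). With median-ratio (RLE) scaling 10 members were called in cDC2 in place of 13, and Fdft1 was not among them. Calls over all genes were then 945 of 12463. Ctsb, which shares exon bases with Fdft1, had 7660 ± 2100 CPM in cDC2 with LPS and PGPC and 14200 ± 3020 CPM untreated. Its part was not tested.

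Stard4 and Acaca were called in cDC1 and not in cDC2. Stard4 had 33.3, 15.9 and 12.5 CPM in cDC2 with LPS and PGPC, against 21.2, 20.9 and 18.7 CPM untreated (0.01 ± 0.51). In cDC1 it had 26.1, 38.9 and 55.3 CPM, against 8.55, 12.7 and 17.6 CPM untreated (1.6 ± 0.50, adjusted p = 0.0379). The groups overlapped in cDC2 and lay apart in cDC1. Acaca stood at 0.07 ± 0.65 in cDC2 and rose by 2.2 ± 0.68 in cDC1 (adjusted p = 0.0333). For this treatment against untreated cells, the difference between the kinds of cell was not tested. Fads1 fell in both, by 1.65 ± 0.36 in cDC2 (adjusted p = 0.00374) and 1.14 ± 0.35 in cDC1 (adjusted p = 0.0314). Fasn fell in cDC1 by 1.24 ± 0.40 (adjusted p = 0.0409).

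The counts moved when single libraries were left out. In cDC2 13 became 8 without LPS and PGPC replicate 4, 6 without untreated replicate 4 and 8 without untreated replicate 5. Over all genes 950 calls became 696, 544 and 597 in turn. In cDC1 18 became 10 without LPS and PGPC replicate 1 or 3, and 8 without untreated replicate 1. Here 1480 calls over all genes became 1273, 1071 and 1208. Hmgcs1, Mvd, Idi1, Fdps and Msmo1 were called in cDC2 each time a library was left out, and Hmgcs1, Idi1, Fdft1, Lss and Cyp51 in cDC1. Proliferation genes summed to 63.8 to 81.3 CPM in cDC2 with LPS and PGPC and 174 to 198 CPM untreated, and to 89.3 to 200 CPM in cDC1 with LPS and PGPC and 363 to 581 CPM untreated. Plasmacytoid markers summed to 305 to 516 CPM in cDC2 with LPS and PGPC, with Klk1 at 0, and 22.5 to 71.8 CPM untreated. In cDC1 8 of 12 macrophage markers fell and 2 rose, and they summed to 347 to 627 CPM with LPS and PGPC and 847 to 1150 CPM untreated. The cDC1 markers summed to 370 to 803 CPM with LPS and PGPC and 1100 to 1820 CPM untreated there, with 3 of 10 called lower, and 5 of 9 tested plasmacytoid markers were called lower (268 to 339 CPM with LPS and PGPC, 288 to 478 CPM untreated). The cDC2 markers summed to 690 to 802 CPM in cDC1 with LPS and PGPC and 333 to 596 CPM untreated. Of 7 tested 2 were called higher and 0 lower. Ribosomal RNA took 7.7 to 39.1% of counts in cDC1 with LPS and PGPC and 40.7 to 71.9% untreated. The part of these values was not tested.

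**Figure D4:**
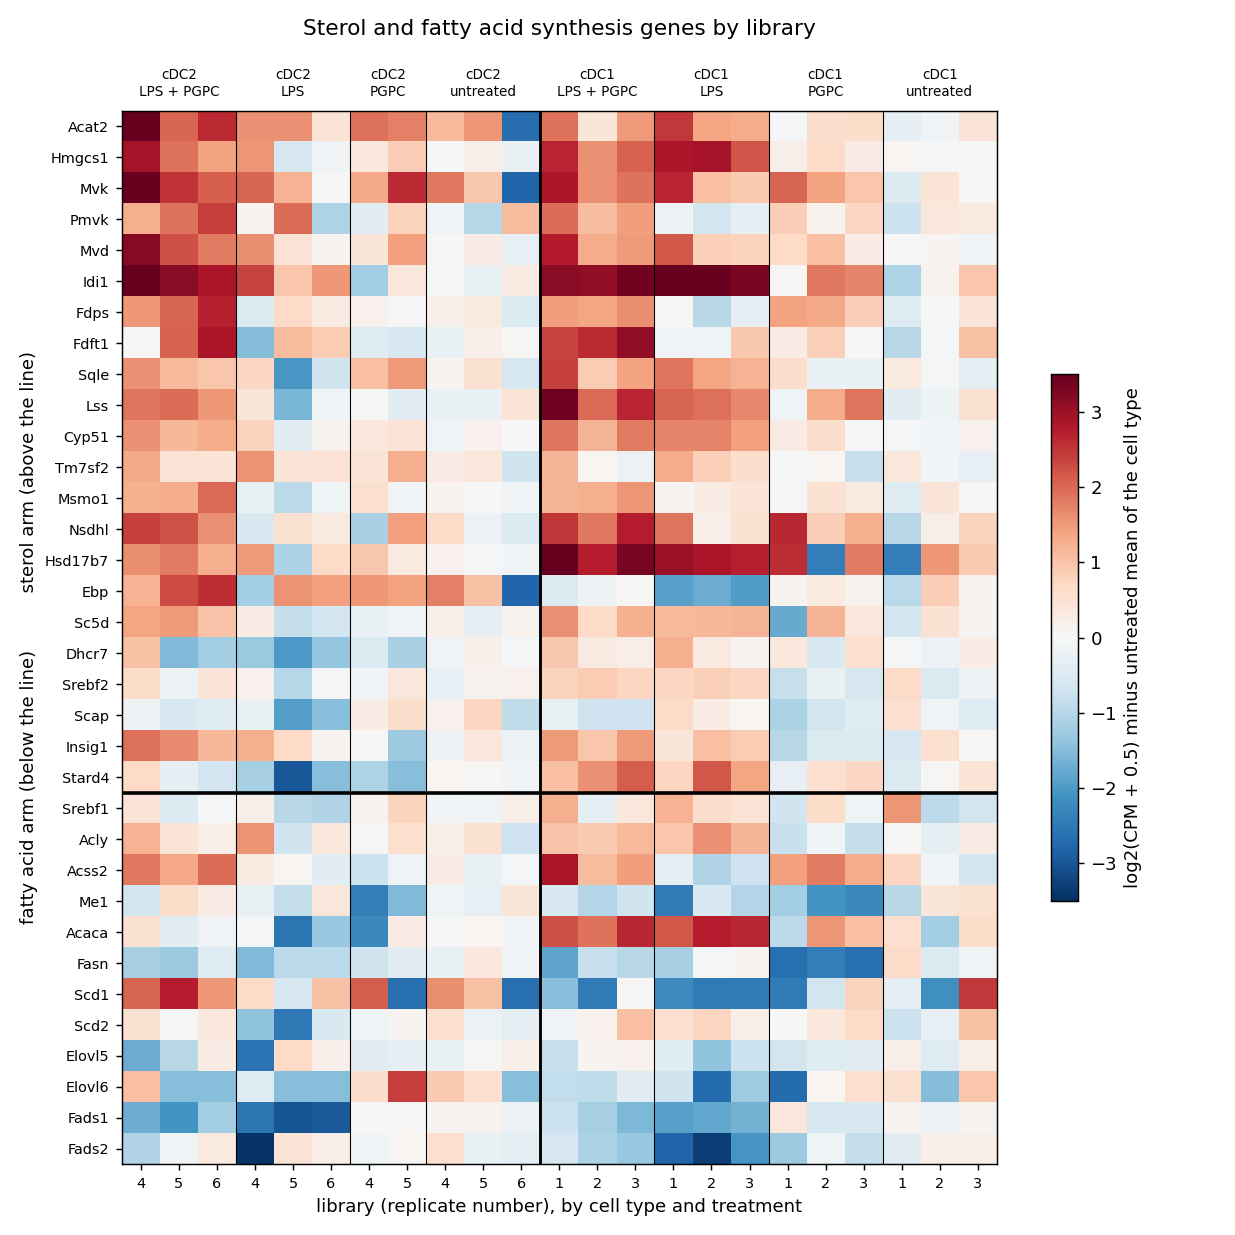
Each column is a library, grouped by cell type and treatment (cDC2 left, cDC1 right), and each line is a gene, with the sterol arm above the black line; colour is log2(CPM + 0.5) minus the untreated mean of that kind of cell. Red fills most of the sterol arm with LPS and PGPC in both kinds of cell and with LPS in cDC1, while Fads1 is blue in all libraries that received LPS.

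The kinds of cell were also compared within a treatment. These differences cannot be told apart from anything else that differs between the libraries numbered 4 to 6 and 1 to 3. Without treatment, 4 genes were called, each lower in cDC2 than in cDC1 (11.8% of 34, against 10.2% of all tested genes called and 6.14% called lower): Fdps, Cyp51, Ebp and Fads2. Fads2 had 7.5, 4.13 and 3.74 CPM in untreated cDC2, against 39.3, 57.3 and 58.6 CPM in untreated cDC1. It lay far apart and its call held under each of 11 alternatives (-3.23 ± 0.68, adjusted p = 0.00324). Fdps had 17.9, 19.6 and 11.2 CPM in untreated cDC2, against 55.6, 76.2 and 103 CPM in untreated cDC1 (-2.18 ± 0.41, adjusted p = 0.00124). The count was 2 without cDC2 untreated replicate 4 or 5, or cDC1 untreated replicate 2 or 3, and also 2 with the ribosomal RNA locus and mitochondrial rows left out.

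With LPS, 17 genes were called, each lower in cDC2 than in cDC1 (50.0%, against 7.8% of all tested genes called and 2.21% called lower). They were 14 of 22 sterol and 3 of 12 fatty acid genes, and the sterol median was -1.81 against -0.04 over all genes. Cyp51 had 53.8, 23.2 and 33.3 CPM in LPS-treated cDC2, against 224, 229 and 186 CPM in LPS-treated cDC1 (-2.53 ± 0.35, adjusted p = 6.7e-05). Scd2 had 5.12, 2.15 and 9.78 CPM in cDC2, against 36.7, 41.9 and 28.8 CPM in cDC1 (-2.73 ± 0.56, adjusted p = 0.00218). Neither gene's groups overlapped. Srebf2 had 232, 104 and 202 CPM in cDC2, against 475, 514 and 470 CPM in cDC1 (-1.44 ± 0.37, adjusted p = 0.0133). Scap was lower by 2.01 ± 0.45 on the log2 scale (20.3 ± 13.2 CPM in cDC2, 82.6 ± 18.2 CPM in cDC1). The count was 10 without cDC2 LPS replicate 5 and 20 without cDC2 LPS replicate 4. Calls over all genes went from 972 of 12463 to 757 of 12580 and 1395 of 12551 in turn. Macrophage markers summed to 1760 to 5200 CPM in LPS-treated cDC2 and 495 to 1300 CPM in LPS-treated cDC1, and their part was not tested.

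With LPS and PGPC, 3 genes were called, each lower in cDC2 (8.82%, against 7.14% of all tested genes called and 2.54% called lower): Fdps, Cyp51 and Fads2. Cyp51 had 92.9, 68.1 and 75.9 CPM in cDC2, against 255, 157 and 246 CPM in cDC1 (-1.47 ± 0.34, adjusted p = 0.00784). Hmgcs1 had 467, 233 and 165 CPM in cDC2, against 621, 298 and 406 CPM in cDC1, and these values overlap (-0.61 ± 0.45, adjusted p = 0.487). The count was 1, Cyp51, without cDC2 replicate 4 of this treatment.

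Averaged over each arm, the sterol mean lay above the fatty acid mean in each of the 6 treated groups, though with PGPC alone in cDC1 not beyond the untreated range in every library. For each library, the mean over an arm's genes of log2(CPM + 0.5), minus the untreated mean of that kind of cell, is given here with no test. The sterol arm averaged 1.52 ± 0.21 in cDC2 with LPS and PGPC, 0.07 ± 0.32 with LPS and 0.33 ± 0.19 (n = 2) with PGPC (SD, n = 3 unless stated). In cDC1 it averaged 1.55 ± 0.33 with LPS and PGPC, 1.06 ± 0.21 with LPS and 0.39 ± 0.07 with PGPC. The fatty acid arm averaged 0.04 ± 0.15, -0.79 ± 0.25 and -0.20 ± 0.19 in the same cDC2 groups, and -0.04 ± 0.24, -0.56 ± 0.10 and -0.46 ± 0.43 in the same cDC1 groups.

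The distance between the arms was 1.59 ± 0.21 with LPS and PGPC and 1.62 ± 0.27 with LPS in cDC1, and 1.48 ± 0.20 with LPS and PGPC and 0.85 ± 0.36 with LPS in cDC2. With PGPC alone it was 0.52 and 0.53 in the 2 cDC2 libraries, and 1.27, 0.56 and 0.72 in cDC1. Untreated libraries ranged from -0.58 to 0.76 in cDC1 and -0.06 to 0.09 in cDC2 on this measure, so 2 of the 3 cDC1 libraries with PGPC lay inside the untreated range. In LPS-treated cDC2 the sterol arm was at 0.42 in replicate 4 and at -0.18 and -0.04 in the other two, so the sign of its mean rested on replicate 4.

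**Figure D5:**
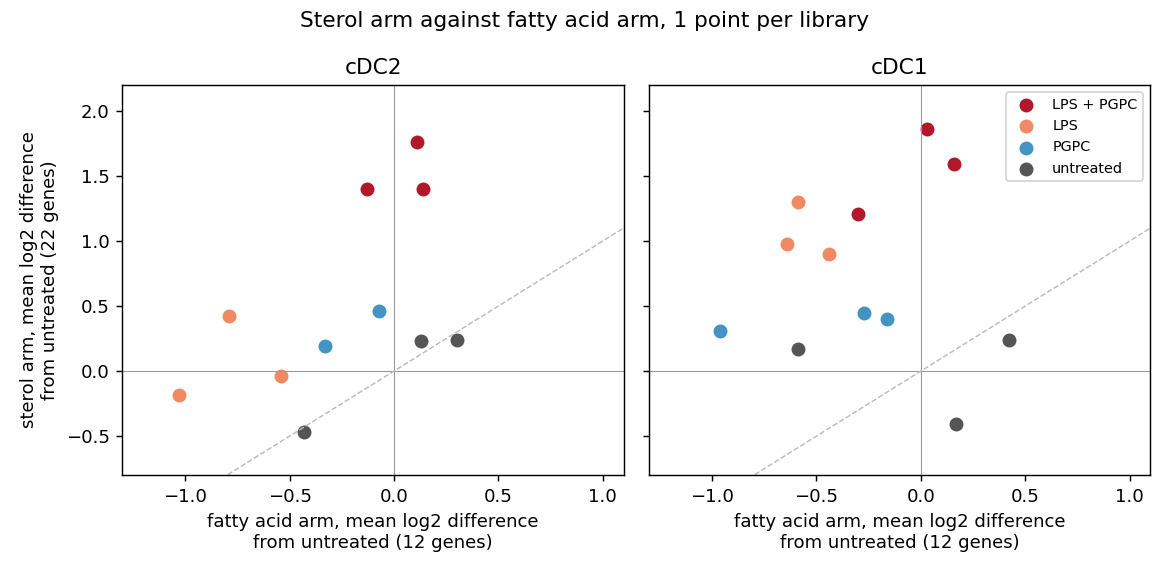
Mean log2 difference from the untreated mean over the 22 sterol genes (vertical) and the 12 fatty acid genes (horizontal), 1 point per library, with cDC2 on the left; the dashed line marks equal change. All 6 libraries with LPS and PGPC lie between 1.21 and 1.86 in the sterol arm, and LPS libraries lie higher in cDC1 (0.9 to 1.3) than in cDC2 (-0.18 to 0.42).

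The genes for the SREBP proteins themselves were not called in any of the 8 treatment comparisons. Srebf2 had 328, 184 and 289 CPM in cDC2 with LPS and PGPC, against 173, 231 and 232 CPM untreated (0.34 ± 0.36, adjusted p = 0.679). In cDC1 it had 503, 528 and 479 CPM with LPS and PGPC and 475, 514 and 470 CPM with LPS, against 458, 203 and 253 CPM untreated (0.73 ± 0.36 and 0.68 ± 0.36, adjusted p = 0.202 and 0.196). All 6 cDC1 libraries that received LPS were above all untreated ones, of which replicate 1 was the highest. Srebf1 had 134, 43.8 and 71.5 CPM in cDC1 with LPS and PGPC and 128, 85.0 and 76.8 CPM with LPS, against 163, 29.0 and 35.0 CPM untreated. Untreated replicate 1 again stood far above the other two, and without it Srebf1 was among the 10 genes called for LPS against untreated cDC1. In cDC2 Srebf1 stood at 0.04 ± 0.55 with LPS and PGPC and -0.47 ± 0.56 with LPS. In all, 10 of the 34 genes were called in none of the 8 treatment comparisons. They were Tm7sf2, Sc5d, Dhcr7, Srebf2 and Scap in the sterol arm, and Srebf1, Me1, Scd2, Elovl5 and Elovl6 in the fatty acid arm. The share of all tested genes never called there was not counted, so this number only describes.

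Per kilobase of merged exons, the levels of the 34 genes in untreated cells can be set beside each other. In untreated cDC2 Acly stood highest (45 ± 18 CPM per kb), then Elovl5, an elongase (37.5 ± 5.61), and Srebf2 (29.5 ± 4.70). In untreated cDC1 the order was Elovl5 (52.3 ± 12.8 CPM per kb), Srebf2 (42.4 ± 18.8) and Acly (33.5 ± 6.60). Neighbours in these orders differed by less than the larger of their SDs, except Elovl5 and Srebf2 in cDC2. The related genes Acat3 and Idi2 averaged at most 0.359 and 0 CPM in any group, beside Acat2 and Idi1.

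Other genes of lipid metabolism were listed beside the 34. Of 18 further sterol and isoprenoid genes, LPS in cDC2 lowered 3 (median -0.26), and in cDC1 raised 1 and lowered 2 (median -0.04). The share called was 16.7% in each, against 8.52% of all tested genes in cDC2 and 17.9% in cDC1. In cDC1 it was thus near the background. LPS with PGPC against untreated cells raised 1 and lowered 3 in cDC2 and lowered 1 in cDC1. Those are 22.2% against 7.62% of all tested genes in cDC2, and 5.56% against 11.9% in cDC1. Npc1, which exports cholesterol from lysosomes, fell in cDC2 with LPS (-1.62 ± 0.39, adjusted p = 0.00825), and Soat1, which esterifies cholesterol, fell there too (-1.80 ± 0.45, adjusted p = 0.00928). Npc2, the lysosomal partner of Npc1, fell in cDC1 with LPS (-1.37 ± 0.35, adjusted p = 0.00813). It was called higher in cDC2 with LPS and PGPC against untreated cells (1.6 ± 0.36, adjusted p = 0.0047). Adding PGPC to LPS in cDC1 raised it (1.33 ± 0.35, adjusted p = 0.047). Its LPS effect was higher in cDC2 than in cDC1 (interaction 2.45 ± 0.5, adjusted p = 0.0123). Lbr, also of this list, was called lower in both kinds of cell, with LPS and with LPS and PGPC, against untreated cells (-1.78 to -1.21).

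Of 21 further fatty acid genes, 19 were tested. LPS raised 2 and lowered 1 in cDC2 (median -0.46), and raised 4 and lowered 1 in cDC1 (median 0.28). Those are 15.8% against 8.52% of all tested genes in cDC2, and 26.3% against 17.9% in cDC1. Acsl1 and Acsl5, which activate fatty acids with coenzyme A, rose in both kinds of cell: Acsl1 by 3.31 ± 0.38 in cDC2 (adjusted p = 5.9e-06) and 1.33 ± 0.36 in cDC1 (adjusted p = 0.0109), and Acsl5 by 1.95 ± 0.39 in cDC2 and 2.03 ± 0.37 in cDC1. With PGPC added to LPS in cDC1, Acsl5 fell (-1.65 ± 0.37, adjusted p = 0.019). The names of these genes were chosen after their values were seen.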

How the data were processed

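RNA from a fixed number of cells per reaction was amplified with Smart-Seq2, made into Nextera XT libraries and sequenced as paired ends, per the labels' protocols. What the authors deposited is 1 table of RSEM expected counts by gene symbol. The submitters' processing notes name RSEM, bcl2fastq 2.2 and GRCm38. Which RSEM version, aligner and annotation were used is not stated in those notes. Of the nonzero values 21% are not whole, so counts were rounded. In the 23 libraries used, edgeR 4.0.16 (R 4.3.3, limma 3.58.1) fitted 8 group means with TMM scaling, robust dispersions and filterByExpr (minimum count 10, minimum total 15), and 13 contrasts were tested by quasi-likelihood with Benjamini-Hochberg adjustment over 12463 genes at 0.05. All adjusted p-values are from this fit unless another tool is named. Counts of members at an unadjusted p under 0.05 come without the share of all genes and only describe. A standard error is the absolute log2 fold change over the square root of F. The p-values measure the spread between these libraries, which may be partly technical. The fit was tested on simulated data for LPS against untreated cDC1. It recovered 41.8% of changes of 2 and 80.7% of changes of 3 on the log2 scale, and 4.55% of its calls were false. A gene without a call may therefore still have changed.

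Cell type and treatment labels define the groups. Members and lists were chosen with earlier results of these data known. Named genes are the called members, up to 8 per arm by adjusted p in each comparison, and a panel of 11 genes (Hmgcs1, Sqle, Insig1, Stard4, Srebf2, Srebf1, Acaca, Fasn, Scd1, Scd2 and Fads2). Uncalled genes outside that panel were named after their values were seen. Exon overlaps are from GENCODE M21. Where a group held 1 to 3 counts, a ratio with an exact conditional 95% interval is given. Reads carry no molecular identifiers. Alternatives were median-ratio (RLE) scaling, no filter, all 36 libraries, DESeq2 1.42.0, the replicate number as a block, each library left out, other pseudocounts and, added after seeing the data, leaving out ribosomal RNA locus and mitochondrial rows.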

Additional observations from a re-analysis of the deposited data

Results flagged for a closer look

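Stard4, which carries sterol between membranes, differed between cDC2 and cDC1 in its response to LPS by a test of that difference. The log2 fold change was lower in cDC2 by 3.30 ± 0.76, or -3.3 as cDC2 minus cDC1 (adjusted p = 0.026, edgeR interaction, n = 3 libraries in each of 4 groups). Stard4 was lower than every untreated library in 3 of 3 LPS libraries of cDC2 and higher than every untreated library in 3 of 3 LPS libraries of cDC1. Of 18 alternatives, 8 lost the call, with adjusted p up to 0.214, and none changed the sign, with values between -3.78 and -2.83.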

How the results depend on the processing

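No called member and no distance between the arms changed direction under the alternatives run for them; uncalled members were not followed. With all 36 libraries in 1 fit, where the biological coefficient of variation was 0.833 in place of 0.545, counts of called members fell to 1 (LPS, cDC2), 2 (LPS, cDC1), 0 (PGPC, cDC1), 0 and 1 (LPS with PGPC against LPS, cDC2 and cDC1), 0 and 2 (LPS with PGPC against untreated, cDC2 and cDC1), 1, 4 and 0 (cDC2 against cDC1 untreated, with LPS, and with both) and 0 (LPS interaction). DESeq2 called 5 (LPS, cDC2), 4 (PGPC, cDC1), 4 and 7 (LPS with PGPC against LPS, cDC2 and cDC1) and 3 (LPS interaction). Over all genes DESeq2 called 1311 of 12120 (LPS, cDC2), 645 of 13519 (PGPC, cDC1) and 190 of 9760 (LPS with PGPC against LPS, cDC2). Without a filter the counts were 5 (LPS with PGPC against LPS, cDC2), 5 (cDC2 against cDC1 with both) and 3 (LPS interaction). Without ribosomal RNA locus and mitochondrial rows, 2 were called between untreated cDC2 and cDC1. Calls over all genes moved too. For LPS in cDC1 they went from 2235 of 12463 genes to 596 of 11482 with all 36 libraries and 2767 of 13055 with DESeq2. For LPS with PGPC against LPS in cDC1 they went from 241 to 8 with all 36 libraries. There DESeq2 called 728 of 9760 genes, and the fit without a filter 585 of 24485. The cause of these shifts was not tested. The fit with 36 libraries also tested fewer genes, 11482 in place of 12463.

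The distance between the arms was 1.73 (LPS with PGPC) and 0.73 (PGPC) in cDC2 and 1.81 (LPS with PGPC) in cDC1 with enzymes only. In cDC2 with PGPC it was 0.48 with a pseudocount of 1 and 0.53 with RLE scaling, against 0.52.

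With each library left out in turn, counts ranged from 1 to 3 (LPS, cDC2), 6 to 10 (LPS, cDC1), 0 to 0 (PGPC, cDC2), 1 to 2 (PGPC, cDC1), 1 to 4 and 1 to 3 (LPS with PGPC against LPS, cDC2 and cDC1), 6 to 9 and 8 to 16 (LPS with PGPC against untreated, cDC2 and cDC1), 2 to 4, 10 to 20 and 1 to 4 (cDC2 against cDC1 untreated, with LPS and with both), 0 to 7 (LPS interaction) and 0 to 1 (interaction for PGPC with LPS).

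The replicate numbers were not taken as pairs, since not every same-numbered pair correlated above 0.1: in cDC2 2 of 15 did (-0.188 to 0.52), against 5 of 30 differently numbered pairs, and in cDC1 6 of 18 (-0.0413 to 0.176), against 0 of 36. The medians were 0.0484 for same and -0.03 for different numbers in cDC1. There all pairs above 0.1 shared a number, so the numbers may carry a weak link. Deviations from a group mean cancel within the group, so positive same-numbered correlations push the differently numbered ones down. This contrast is thus partly built in and cannot settle the question. In cDC2 the group with PGPC has 2 libraries, whose deviations from their mean mirror each other. Their correlations come in opposite pairs, such as -0.188 and 0.188 with replicate 4 of LPS with PGPC. Pairs with these libraries therefore cannot show whether the numbers matter. With the replicate number as a block, 3 and 12 members were called with LPS in cDC2 and cDC1, 0 and 1 with PGPC, 2 and 3 for LPS with PGPC against LPS, 12 and 17 for LPS with PGPC against untreated, and 1 and 0 for the interactions. No paired analysis was possible for cDC2 against cDC1 because they share no replicate number. Depth limits the low genes most: the shallowest library, untreated cDC2 replicate 6, held 354 counts over the 34 genes.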

Other observations

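The libraries that were left out hold few counts of these genes. Libraries of cDC2 with LPS and alum held 0 to 2 counts over the 34 genes, and those of cDC2 with alum 3 to 4. In cDC1 with LPS and alum they held 616 to 13126 counts, from 11 of the 34 genes, of which 3 had counts in every library. In cDC1 with alum they held 1 to 13 counts. Replicate 6 of cDC2 with PGPC held 4 counts over these genes.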
